A study of Mus musculus with 7 samples.

Results

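The genes described here encode the proteasome, the protease complex that degrades ubiquitinated proteins. They were chosen by symbol: a gene was a member when its symbol was Psm, followed by a letter from a to g and a digit, in both gene count tables. Of the 20772 symbols that the tables share, 48 were members. One of them, Psmc3ip, is named after a partner of Psmc3 and acts in meiotic recombination, so 47 members belong to the proteasome or to its regulators and chaperones. The pattern also took 5 symbols found only in the table of the kit comparison, which are the pseudogenes Psmb5-ps, Psmb6-ps, Psmb6-ps2 and Psmb7-ps2 and the copy Psme2b, and 1 found only in the other table, Psmd1.

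The study compared ways to make RNA-Seq libraries from very small pieces of tissue. Area CA2 of the hippocampus was cut out by laser capture microdissection from naive male Amigo2-GFP C57BL/6 mice, aged 6 weeks, in which a fluorescent protein under control of the Amigo2 gene marks CA2 neurons. Of the 7 libraries, 4 form the kit comparison, with 1 library for each combination of a library kit (NuGEN Ovation or Clontech SMARTer) and an RNA sample (QIAGEN extraction, RNA integrity number 9, or PicoPure extraction, number 7). The NuGEN cDNA was not sheared in those libraries, whereas the other 3 libraries were sheared NuGEN libraries of QIAGEN RNA amplified with 16, 18 and 20 PCR cycles. Their column labels name another mouse for each number of cycles, so cycles and mouse cannot be told apart. The labels give CA2 as the source in each case. In the study's own test of RNA quality, however, QIAGEN was used on CA2 tissue and PicoPure on CA1 tissue. The column labels of the sheared libraries carry the mouse numbers and the letters CB (cell body) of CA2 samples in that test. The methods name a separate cohort for the cycle comparison. The sources used here do not state whether RNA from that test was sequenced, so the values of CA1 markers are given beside the RNA results.

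Each group was 1 library. P-values therefore set a difference against the spread left after the kit and the RNA sample (or the cycles) were fitted, which is borrowed from other genes, and they compare these libraries. The reads assigned to genes numbered 4548002 to 10417443 in the unsheared libraries and 33239387 to 39256039 in the sheared ones, and the members took 0.181 to 0.211% of them in the unsheared and 0.368 to 0.376% in the sheared libraries. The CA2 markers Rgs14, a regulator of G protein signaling, and Amigo2, a cell adhesion protein, were high in every library, at 3465 to 4649 and 2237 to 3065 normalized counts in the unsheared libraries. A normalized count is a read count divided by the size factor of its library. In tissue pieces, fewer cells of a type and less RNA per cell cannot be told apart.

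The 20S core of the proteasome is a stack of rings in which alpha subunits (Psma genes) gate the entrance and beta subunits (Psmb genes) hold the active sites. The 19S cap recognizes ubiquitinated proteins, removes the ubiquitin and unfolds them, using a ring of ATPases (Psmc genes) and a set of other subunits (most Psmd genes). Interferon-induced beta subunits can replace the constitutive catalytic ones to form the immunoproteasome, the PA28 and PA200 proteins (Psme genes) are alternative caps, and the Psmg genes together with some Psmd genes encode assembly chaperones. In neurons, proteasomes take part in the turnover of synaptic proteins.

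The promoters of 4 catalytic subunits are shown because the RNA levels of these constitutive and inducible partners, given next, lay far apart. Psmb5 and Psmb6 encode the chymotrypsin-like and the caspase-like site of the constitutive core, and Psmb8 and Psmb9 encode their inducible counterparts. Each window runs from 250 bases before to 50 bases after a RefSeq start site on GRCm38.p6, on the strand of the gene. Capitals mark matches to any of the 9 strings given below by their letters or by name.
Psmb5, chr14:54617946-54618245, minus strand: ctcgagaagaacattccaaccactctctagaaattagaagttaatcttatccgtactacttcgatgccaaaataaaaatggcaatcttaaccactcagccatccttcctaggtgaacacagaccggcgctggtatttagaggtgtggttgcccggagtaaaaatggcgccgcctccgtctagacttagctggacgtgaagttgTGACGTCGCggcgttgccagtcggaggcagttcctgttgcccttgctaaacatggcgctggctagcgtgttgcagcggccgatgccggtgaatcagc
Psmb6, chr11:70525107-70525406, plus strand: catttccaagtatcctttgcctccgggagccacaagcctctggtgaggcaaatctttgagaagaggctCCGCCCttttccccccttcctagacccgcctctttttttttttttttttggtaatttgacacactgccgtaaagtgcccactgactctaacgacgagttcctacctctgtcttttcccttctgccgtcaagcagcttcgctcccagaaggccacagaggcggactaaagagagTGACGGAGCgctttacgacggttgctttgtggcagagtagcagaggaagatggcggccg
Psmb8, chr17:34197945-34198244, plus strand: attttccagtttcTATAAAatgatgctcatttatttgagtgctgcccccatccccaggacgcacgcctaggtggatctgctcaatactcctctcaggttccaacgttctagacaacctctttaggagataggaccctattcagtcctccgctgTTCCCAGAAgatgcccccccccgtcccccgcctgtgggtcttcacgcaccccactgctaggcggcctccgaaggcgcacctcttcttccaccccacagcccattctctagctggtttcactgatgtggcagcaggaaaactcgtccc
Psmb9, chr17:34187281-34187580, minus strand: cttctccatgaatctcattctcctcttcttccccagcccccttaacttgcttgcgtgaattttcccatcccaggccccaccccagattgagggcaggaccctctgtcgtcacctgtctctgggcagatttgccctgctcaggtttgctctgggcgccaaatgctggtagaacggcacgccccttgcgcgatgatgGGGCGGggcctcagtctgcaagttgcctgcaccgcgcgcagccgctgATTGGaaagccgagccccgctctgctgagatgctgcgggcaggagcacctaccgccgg

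The capitals are TGACNNNGC in Psmb5, GGGCGG (as CCGCCC) and TGACNNNGC in Psmb6, TATAAA and TTCNNNGAA in Psmb8, and GGGCGG and CCAAT (as ATTGG) in Psmb9, where N is any base. The annotated span of Tap1, a transporter of antigenic peptides on the other strand, overlaps that of Psmb9. RefSeq windows were found for 40 of the 48 members. Among the strings searched on both strands, CCGGAAG, which Ets family factors bind, was in the windows of 15 of the 40 members (37.5%) and in those of 9.93% of all 27025 genes with a window. GGGCGG, the GC box, was in 55.0% of the members and 38.2% of all genes, and the core of an interferon-stimulated element in 12.5% and 3.99%. The shares were close for CCAAT (37.5% and 41.1%), TGACNNNGC, the core of the antioxidant element (6 of 40 members and 3781 of 27025 genes), and TTCNNNGAA, a STAT site (7.5% and 9.55%). TATAAA was in 7.5% and 15.7%, and TGACTCA, an AP-1 site, in 2.5% and 5.95%. A site of nuclear respiratory factor 1, which is not the Nfe2l1 named further below, was in 5.0% and 1.07%. The strings can overlap, and a match is only a match of letters.

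The constitutive subunits had like levels. Measured per kb of exon, so that genes of different length can be compared, the 30 constitutive subunits of core and cap in both tables lay between 816 ± 78.7 normalized counts per kb (mean ± SD over the 3 sheared libraries) for Psmd11, a subunit of the 19S lid, and 4714 ± 344 for Psmb5. Their levels thus spread over less than a factor of 10, with an SD of log2 levels per kb of 0.586 to 0.611 within each sheared library. Without division by length the SD of the log2 counts was smaller, at 0.412 to 0.451. The length takes in every annotated exon of a gene, so the order per kb depends on the annotation. Next to Psmb5 stood Psmb7, the trypsin-like site, at 4633 ± 420.4 per kb, and the 2 did not differ beyond their spread. In normalized counts, Psmb5 had 3912, 4277 and 4526 at 16, 18 and 20 cycles, Psmb7 had 5169, 5022 and 5931, and Psmb6, the caspase-like site, had 2693, 2706 and 2829. Psma1, an alpha ring subunit, followed at 3834 ± 323. Psmc5, an ATPase, at 3452 ± 127 and Psmb6 at 3437 ± 93.8 came next and lay within their SDs of each other. The highest non-ATPase subunit was Psmd2, a scaffold of the 19S base, at 2609.7 ± 69.7 per kb, close to Psmd1, its partner in the base, at 2412 ± 54.9.

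**Figure D1:**
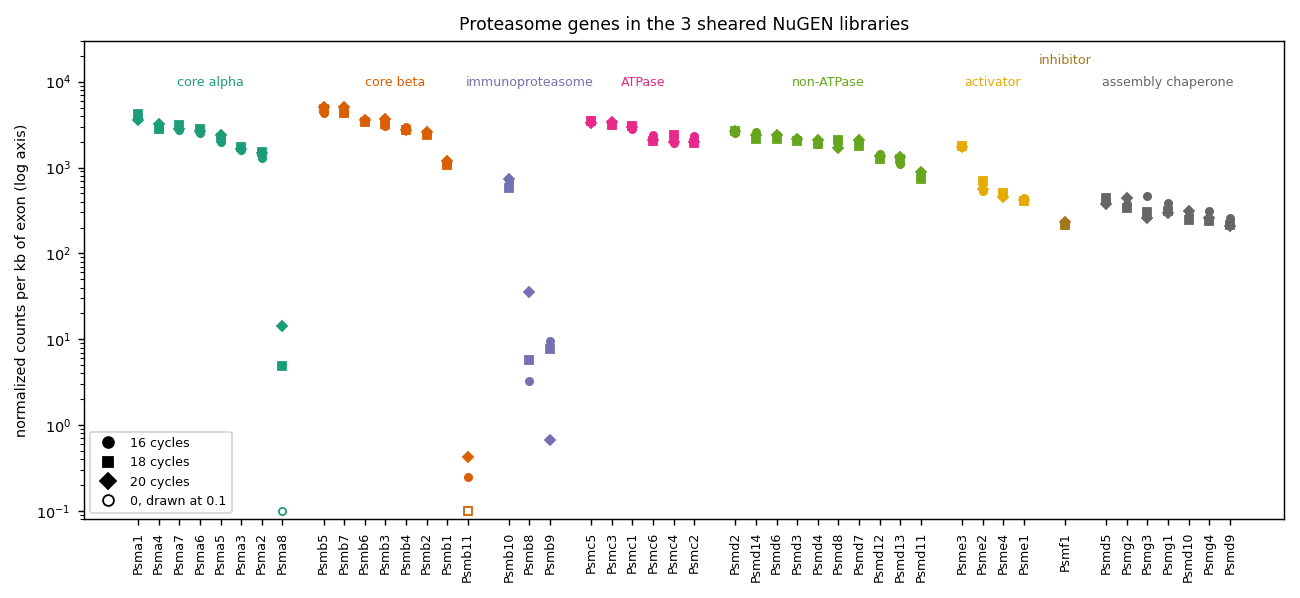
Normalized counts per kb of exon on a log axis for 47 proteasomal members in the sheared libraries, grouped by class and ordered by mean; each point is 1 library (16, 18 or 20 cycles) and open points are 0. Constitutive subunits lie between 816 and 4714 per kb on average, whereas Psma8, Psmb11, Psmb8 and Psmb9 average below 15.

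The levels of the subunits were much alike among the sheared libraries, and less so across the kits. Over the 30 subunits, the log2 normalized counts of any pair of sheared libraries had a Pearson correlation of 0.94 to 0.95, as a description across genes that share libraries and length. It was 0.87 between the NuGEN libraries of the kit comparison and 0.83 between the Clontech ones, yet 0.25 between the kits with QIAGEN RNA and 0.27 with PicoPure RNA. Each unsheared library had a correlation of 0.46 to 0.56 with the sheared libraries. The kits also disagreed on the highest subunit per kb, which was Psmc1 in both NuGEN libraries and Psmb6 in both Clontech libraries.

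The inducible subunits were very unequal. Psmb10, the inducible counterpart of Psmb7, had 915, 749 and 961 normalized counts at 16, 18 and 20 cycles, which is 667 ± 85.2 per kb. Psmb8, the counterpart of Psmb5, had 5.32, 9.28 and 57.8, and Psmb9, the counterpart of Psmb6, had 12.8, 10.3 and 0.903. Psmb10 thus stood somewhat below the lowest constitutive subunit and far above Psmb8 and Psmb9 in each library.

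Set against its constitutive counterpart per kb, Psmb10 reached 15.7, 13.2 and 14.3% of Psmb7 in the sheared libraries. Psmb8 reached 0.0752, 0.12 and 0.705% of Psmb5, and Psmb9 0.28, 0.225 and 0.0188% of Psmb6. In reads, Psmb8 had 5, 9 and 64, and the last of these made up 1.26% of the reads of Psmb8 and Psmb5 together (Wilson 95% interval 0.988 to 1.61%), above the upper bounds of 0.318 and 0.411% at 16 and 18 cycles. Intervals of this kind cover counting error only, since copies made by PCR are not independent molecules. Psmb9 went the other way, with 12, 10 and 1 reads.

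In the unsheared libraries Psmb10 had 178, 70.2, 54.6 and 99.9 normalized counts in the NuGEN libraries of QIAGEN and PicoPure RNA and then the Clontech libraries of the same RNA. In the same order Psmb8 had 0, 1.40, 13.5 and 0, and Psmb9 had 3.33, 0, 6.43 and 2.48, so both were at the limit of detection. NuGEN QIAGEN had 0 reads of Psmb8 beside 274 of Psmb5, which allows a share of up to 1.09%, and Clontech PicoPure had 0 beside 413, which allows up to 0.726%. Clontech QIAGEN had 21 reads of Psmb8, and the exon table put 20 of them on a piece of exon 2, 21 on a piece of exon 3 and 21 on exon 4, with at most 1 on any other piece. The reads of that library thus came from the same short stretch of the transcript.

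Other rare members looked alike. All 10 reads of Psmb9 in Clontech QIAGEN fell on the same pieces of exon 2, the 8 reads of Psma8 in Clontech PicoPure on 1 piece of exon 7, and the 54 reads of Psmc3ip in Clontech QIAGEN all covered exons 5 and 6. Psma8, the alpha subunit of spermatogenic cells, and Psmb11, the beta subunit of the thymus, were also close to 0 in the sheared libraries. Psma8 had 0, 8.25 and 24.4 normalized counts there and 0, 2.81, 0 and 4.97 in the unsheared libraries, in the order used above. Psmb11 had 1.06, 0 and 1.81 in the sheared libraries and 0, 0, 0 and 9.31 in the unsheared ones. Markers of microglia, cells in which inducible subunits are known, were present: 10 of 10 had reads in the sheared libraries, with summed levels of 3585, 3696 and 3861 normalized counts. Their part in the Psmb10 signal was not tested.

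The chaperones, the inhibitor and most of the alternative caps were lower than every constitutive subunit, with Psme3 as the exception. Psme3, the nuclear PA28 gamma, had 4605, 4808 and 4668 normalized counts at 16, 18 and 20 cycles (1762 ± 39.1 per kb), the smallest relative spread of any member (CV 2.22%). Psme1 and Psme2, the interferon-induced PA28 alpha and beta, which form a common ring, had 422 ± 21.0 and 592 ± 88.2 per kb, and Psme4 (PA200) had 474 ± 24.4. Psmf1, the inhibitor PI31, had 219 ± 9.48 per kb. The 7 chaperones lay between 226 ± 26.2 for Psmd9 and 408 ± 31.3 for Psmd5, both of the 19S base, below every constitutive subunit. The reads of Psme2 may be shared with its copy Psme2b, which had 17.4 to 25.3 normalized counts in the unsheared libraries against 30.0 to 57.1 for Psme2.

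The kit comparison asks how the choice of library kit changes the levels of the same RNA. Limma was fitted with the kit and the RNA sample as additive terms to log2(normalized count + 1) of 13044 genes that reached 10 normalized counts in 2 or more libraries. Of the 48 members, 44 passed this filter. After adjustment over all genes, 8 members were higher with NuGEN and 6 lower, 14 of 44 or 31.8%, where 21.3% of all genes were called (10.8% higher and 10.5% lower). The median difference was 0.14 log2 over the members and -0.04 over all genes, and removing the trend with gene length and GC content turned the members' median to -0.25. For 27 of the 44 the NuGEN and the Clontech libraries did not overlap, against 55.0% of all genes. DESeq2 on the recovered reads called 6 members higher and 3 lower (8.48 and 6.26% of all genes, 14.7% together), edgeR 7 and 5 (10.5 and 8.43%), and limma without the RNA term 3 and 1 (5.3 and 3.48%, 8.78% together). The calls were not shown to hold with any library left out. In those fits 1 kit has only 1 library and the other term is dropped, so they cannot decide it.

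**Figure D2:**
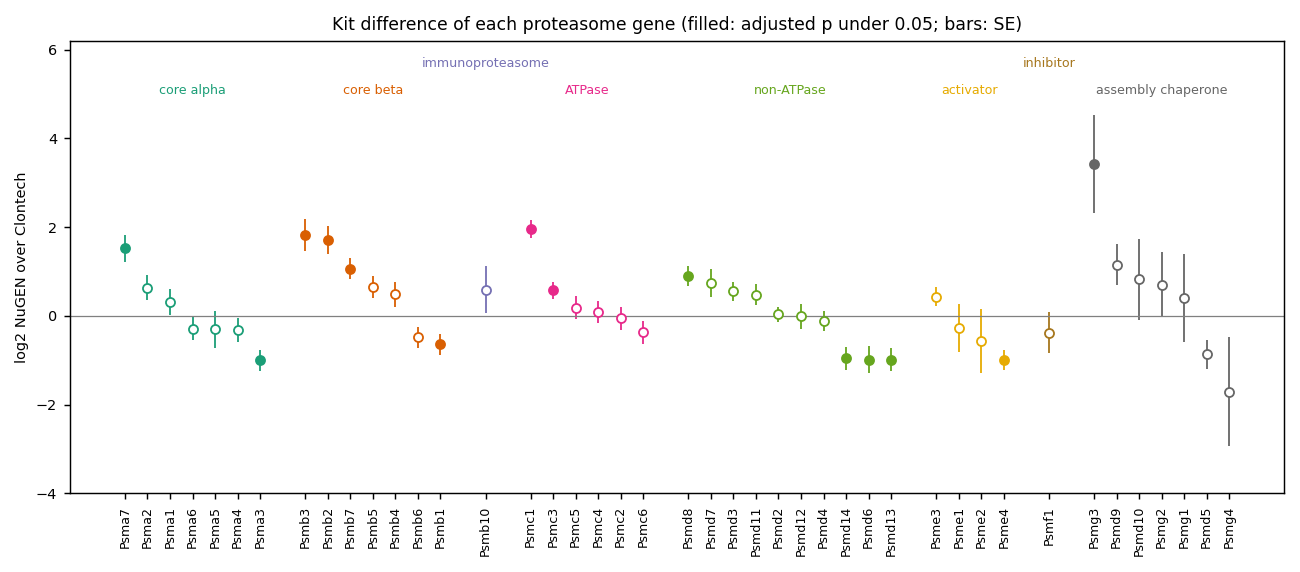
Log2 difference of NuGEN over Clontech for the 43 tested proteasomal members by class, with the SE from limma as bars; filled points have an adjusted p under 0.05. Called genes stand on both sides of 0 in the core alpha, core beta and non-ATPase classes, and Psmc1 at 1.95 is the highest with a small SE.

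The core beta class held most calls for its size. Psmb3, a noncatalytic beta subunit, had 327 and 349.6 normalized counts in the NuGEN libraries (QIAGEN and PicoPure) and 129 and 69.5 in the Clontech libraries. The NuGEN values were both above the Clontech ones (1.82 log2 ± 0.358 SE, adjusted p = 0.000185 from limma). With the trend of length and GC removed, the difference was 0.85 and did not pass (adjusted p = 0.0827 from limma). Psmb2, another noncatalytic one, had 476 and 354 against 152 and 102 (1.71 ± 0.309, adjusted p = 5.5e-05), and Psmb7 had 646 and 559 against 432 and 191 (1.06 ± 0.245, adjusted p = 0.00119). Psmb7 lost its call without the RNA term and without the length and GC trend, where it was at 0.55. Psmb1 was the only lower one of the class, with 308 and 333 against 532 and 467 (-0.64 ± 0.237, adjusted p = 0.05, just under the threshold), and it lost its call under 8 of 11 alternatives. The other catalytic subunits did not pass: Psmb5 had 456 and 438 against 318 and 256, and Psmb6 had 376 and 275 against 570.2 and 356.

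In the alpha ring, 1 of 7 tested genes was higher and 1 lower. The counts of Psma7 were 495 and 327 in the NuGEN and 222 and 87.5 in the Clontech libraries (1.52 log2 ± 0.308, adjusted p = 0.000267 from limma). Psma3 went the opposite way, at 288 and 269.6 against 572 and 548 (-1.004 ± 0.237, adjusted p = 0.00155). In both genes the libraries of the kits did not overlap. Psma3 kept its call under all 11 alternatives that left out no library, whereas Psma7 lost its call without the RNA term. Psma1, the highest of the ring per kb, had 423 and 202 against 277 and 199.

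Among the ATPases the kits differed most for Psmc1. Its NuGEN libraries held 1348 and 1050.3 counts and its Clontech libraries 294 and 321 (1.95 log2 ± 0.202, adjusted p = 1.04e-09 from limma), kept under the same 11 alternatives. Psmc3, the ATPase with the highest count in the sheared libraries, had 965 and 678 against 638 and 463 (0.57 ± 0.191, adjusted p = 0.027) and lost its call under 3 alternatives, at 0.17 without the length and GC trend. At the other end, Psmc6 had 393 and 264 against 384 and 455 and did not pass.

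Of the 10 non-ATPase subunits, 1 rose with NuGEN and 3 fell. Psmd8, of the lid, stood at 641 and 639 in the NuGEN and at 413 and 284 in the Clontech libraries (0.90 log2 ± 0.224, adjusted p = 0.00263 from limma). Psmd13, also of the lid, had 252 and 199 against 465 and 428 (-0.99 ± 0.263, adjusted p = 0.00476). Psmd14, the deubiquitinase of the lid, had 215 and 334 against 614 and 441 (-0.95 ± 0.259, adjusted p = 0.00599), and Psmd6 had 163 and 176 against 381 and 297 (-0.99 ± 0.303, adjusted p = 0.0156). None of the 3 overlapped between the kits, as was so for all 14 called members. The calls were made on the same values, so this adds no support to them. Among all 44 tested members, called or not, 27 did not overlap, against 55.0% of all genes. Psmd8 and Psmd13 lost their call without the RNA term. Psmd14 and Psmd6 lost theirs in DESeq2, without the RNA term and in listed exons only. Psmd2, the highest of the class, had 976 and 1122 against 1080.0 and 965.

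Outside core and 19S cap, 2 members passed. For Psme4 the NuGEN values were 235 and 417 and the Clontech values 496 and 799 (-1.01 log2 ± 0.225, adjusted p = 0.000872 from limma). Psme4 lost its call without the RNA term. Psmg3, a chaperone of the core, had 66.6 and 57.6 against 0 and 33.5, and its fitted difference of 3.42 ± 1.11 (adjusted p = 0.0225) rests on the 0 reads of Clontech QIAGEN. With the trend of length and GC removed, in edgeR, in DESeq2, without the RNA term or in listed exons only, it lost the call. Psmg4, at the other end of the class, had 3.33 and 8.42 against 19.3 and 20.5, and Psme3 had 701 and 472 against 452 and 404, neither of which passed. Psmd5, the highest chaperone, had 137 and 167 against 308 and 248, and Psmf1 109.9 and 85.6 against 169 and 94.3, again without passing. Psmb10 did not pass either (0.59 ± 0.533, adjusted p = 0.481). Of the 14 called members, 7 lie on the same stretch of genome as another annotated gene, as do 22 of all 48 members. How reads were shared out there was not tested.

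**Figure D3:**
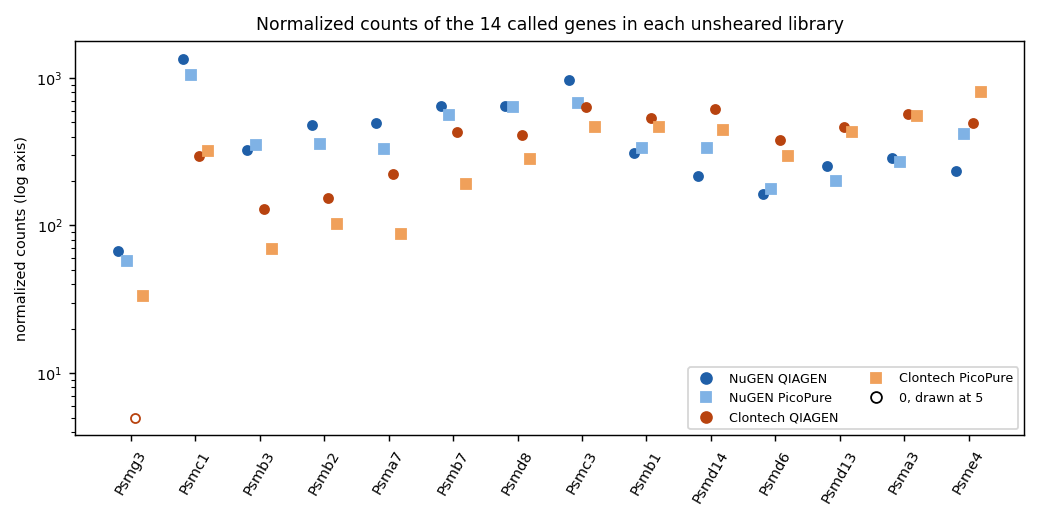
Normalized counts on a log axis of the 14 members called between the kits, in each of the 4 unsheared libraries (1 point each). In 8 genes both NuGEN points lie above both Clontech points, and in the other 6 both lie below.

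The kit difference of many members depended on the position along the gene. The exon table of the same libraries numbers exons from the 5′ end, and the exons of each gene were split into an earlier and a later part of equal number. This split was added after the data had been seen. In the earlier exons, 24 of 44 members were higher with NuGEN (54.5%, against 24.2% of all 10587 genes) and 3 lower (6.82%, against 4.79%). In the later exons, 2 of 42 were higher (4.76%, against 8.27% of 11251 genes) and 10 lower (23.8%, against 14.8%). The median kit difference of the members was 1.06 log2 in the earlier exons (0.65 over all genes) and -0.53 in the later ones (-0.30 over all genes).

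**Figure D4:**
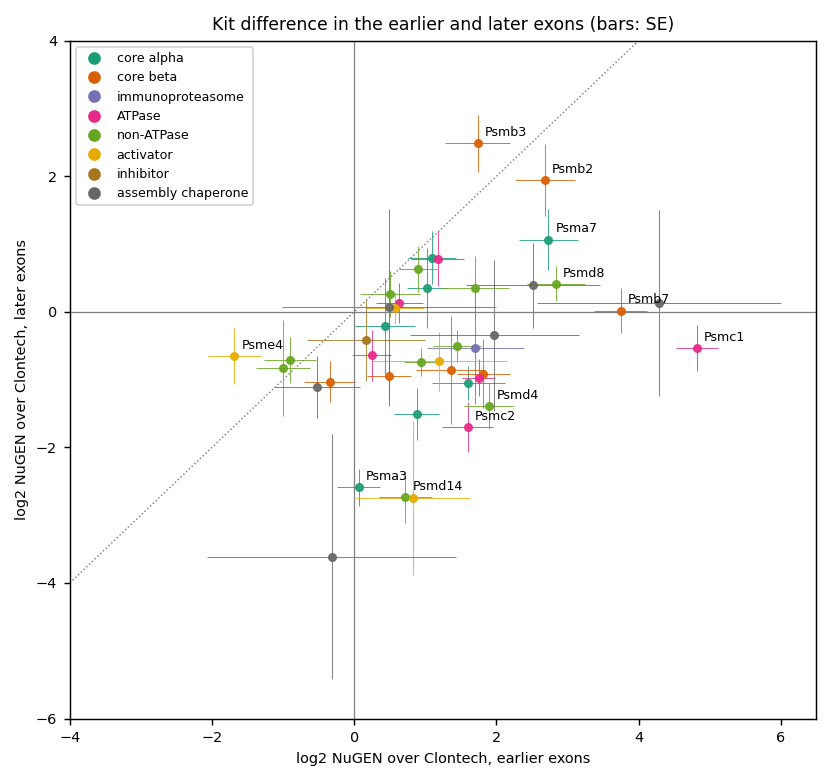
Log2 difference of NuGEN over Clontech in the later exons (vertical) against the earlier exons (horizontal) for the 42 members tested in both, with SEs; the dotted line marks equal differences. Most points lie to the right of and below that line, and Psmc1 lies at 4.82 and -0.53.

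Psmc1 is the clearest case. Exons 1 to 5 held 3777 and 2577 counts in the NuGEN libraries (QIAGEN and PicoPure) and 78.1 and 154 with Clontech, a difference of 4.82 log2 ± 0.296 (adjusted p = 2.46e-47 from limma). Exons 7 to 11 had 316 and 284 against 401 and 466, and the difference there was -0.53 ± 0.339 (adjusted p = 0.274). The higher values with NuGEN were thus in exons 1 to 5, and the later exons had the opposite sign. The peaks stood apart: exon 3 held the most counts with NuGEN, at 965 and 702, and exon 9 with Clontech, at 132 and 160.4. A read is counted in each exon it covers, so sums over exons exceed the gene's own count. This excess differed by kit. By the median over members, the exon sum was 2.98 and 2.89 times the gene's reads with NuGEN (QIAGEN and PicoPure). With Clontech it was 2.16 and 2.17 times. Its part in the kit differences of the exons was not tested.

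Psmd14, shown beside it because its gene difference has the opposite sign and chosen after its values were seen, had the same shift. Its earlier exons held 388 and 526 counts in the NuGEN and 334 and 225 in the Clontech libraries (0.72 log2 ± 0.373, adjusted p = 0.139 from limma), and its later exons 143 and 86.8 against 879.9 and 634 (-2.73 ± 0.379, adjusted p = 1.23e-09). On exon 13 it had 7.67 and 3.89 counts with NuGEN and 203 and 144 with Clontech. Both NuGEN libraries were lower than both Clontech libraries in the later exons, whereas in the earlier ones they were higher.

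**Figure D5:**
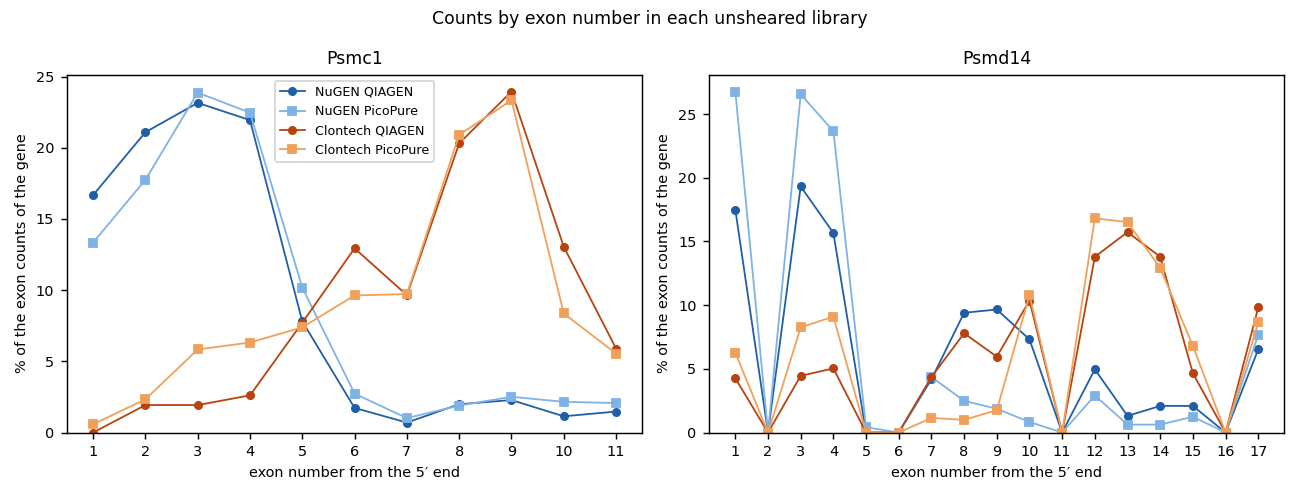
Share of a gene's exon counts on each exon, in percent, for Psmc1 and Psmd14 in the 4 unsheared libraries. In Psmc1 the NuGEN lines peak at exon 3 and the Clontech lines at exon 9, and in Psmd14 the NuGEN lines are highest at exons 1, 3 and 4 and the Clontech lines at exons 12 to 14.

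The same held for further members. The earlier exons of Psma3 overlapped between the kits, with 505 and 625 counts against 522 and 554 (0.06 log2 ± 0.303), while its later exons had 219 and 248 against 1351 and 1463 (-2.59 ± 0.274, adjusted p = 7.3e-15 from limma). For Psmb7 the earlier exons had 1405 and 1166 against 217 and 40.8 (3.75 ± 0.376, adjusted p = 6.64e-20) and the later exons gave 0.02 ± 0.333. In 6 members the parts were both called with opposite signs, higher in the earlier and lower in the later exons: Psma4, Psma6, Psmc2, Psmc3, Psmd2 and Psmd4. That is 6 of 42 members, beside 4.22% of 9980 genes. Psmd2 shows it with counts of 1448 and 1363 against 781 and 685 in the earlier exons and 747 and 1248 against 1604 and 1611 in the later ones, while its gene counts hardly differed.

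The signs in the earlier and later exons were opposite in 20 of 42 members, close to the 48.2% of all genes. Called in the same direction in both parts were 2 members. The share of all genes called so was not computed, so these are given as single cases. Psmb3 (1.74 log2 ± 0.459 in the earlier and 2.49 ± 0.42 in the later exons, adjusted p = 0.00126 and 6.04e-07 from limma) and Psmb2 (2.68 ± 0.421 and 1.95 ± 0.529, adjusted p = 7.56e-09 and 0.00282) were higher with NuGEN in both parts. No member was lower in both parts by the same test. Over the members tested in both parts, the earlier exons held a median of 66.7 and 71.0% of the exon counts (of earlier and later exons) with NuGEN and 40.2 and 41.9% with Clontech. The share was higher in both NuGEN libraries than in both Clontech libraries for 27 of 42 members, against 51.8% of all genes.

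The ends of the genes were compared as well. The first exon against the inner exons was above 0 (more with NuGEN) in 35 of 36 members, against 87.4% of 7134 genes, with a median of 1.78 log2 over the members and 1.92 over all genes. In limma 0 members passed, with 13 at an unadjusted p under 0.05 (36.8% of all genes), and 0.0% of all genes passed. With a pseudocount of 10, 16 members passed (34.6% of all genes were higher), without the RNA term 4 (10.3%) and without Clontech PicoPure 8 (17.9%). The first exon held a median of 27.0 and 25.4% of a member's exon counts with NuGEN and 7.39 and 7.97% with Clontech. The last exon against the inner exons was above 0 in 18 of 38 members, against 42.7% of 8649 genes. The median was -0.07 log2 over the members and -0.25 over all genes. By limma 0 members and 0.0% of all genes passed, with 4 members at an unadjusted p under 0.05 (15.8% of all genes).

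The RNA comparison asks whether extraction with PicoPure, which gave the lower RNA integrity, changes the levels. In the same limma fit 0 of 44 members passed, where 1.76% of all genes were called, and 7 members had an unadjusted p under 0.05 (12.5% of all genes did). DESeq2 and edgeR also called 0 members (1.4 and 1.57% of all genes), with 4 and 6 at an unadjusted p under 0.05. The estimate was below 0 (less in PicoPure) for 36 of 44, with a median of -0.25 log2 over the members and -0.03 over all genes. Below 0 were all 7 alpha, all 7 beta and all 6 ATPase genes tested, and 7 of the 10 non-ATPase genes, where 47.8% of all genes were above 0. Within the kits these counts were lower in part, with 5 of the 7 beta genes below 0 within NuGEN and 3 of the 6 ATPase genes within Clontech. Within NuGEN the median of the members was -0.23 and 32 of 44 were below 0, and within Clontech it was -0.21 with 31 below 0. The sign was the same in both kits for 25 of 44 (56.0% of all genes), and the RNA groups did not overlap for 9 (26.1% of all genes).

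The largest estimates were those of Psmg3 (2.45 log2 ± 1.11, adjusted p = 0.342 from limma), Psmc3ip (-1.40 ± 1.64, adjusted p = 0.814), whose values were 1.67 and 34.7 in the QIAGEN and 12.6 and 0 in the PicoPure libraries, and Psma7 (-0.96 ± 0.308, adjusted p = 0.119). In Psma7 the values were 495 and 222 normalized counts in the QIAGEN libraries (NuGEN and Clontech) and 327 and 87.5 in the PicoPure ones, so the groups overlapped through the kits but the PicoPure value was lower within each kit. Nearest to the threshold was Psme4, with 235 and 496 counts in QIAGEN and 417 and 799 in PicoPure (0.76 ± 0.225, adjusted p = 0.0809), higher in PicoPure within each kit. It passed with the filter set to 100 counts, where 2.77% of all genes were higher. The earlier exons alone gave 1 call in the other direction (0.0567% of all genes), Psma1, at 1464 and 607 counts in QIAGEN and 540.4 and 311 in PicoPure.

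Markers of some other cell types differed between the RNA samples. The 6 CA1 markers were all above 0, 2 of them called higher in PicoPure, with a median of 1.09 log2 and summed levels of 1233 to 1777 normalized counts in the QIAGEN and 2494 to 2825 in the PicoPure libraries. The 6 oligodendrocyte markers were all below 0, 2 of them called lower, with sums of 4056 to 6402 in QIAGEN and 2798 to 4002 in PicoPure. All 6 astrocyte markers were below 0 with 0 called (median -0.38, sums of 2244 to 2431 and 1709 to 1919). Of the microglia markers 4 were above and 4 below 0, and of the endothelial markers 3 and 3, with 0 called. The part of these cells in the members' values was not tested.

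No member passed across the PCR cycles. Of 45 members tested, 0 had a slope that passed in limma, where 0.117% of 13639 genes did, and 0 had an unadjusted p under 0.05 (4.55% of all genes did). DESeq2 and edgeR also called 0 (0.044 and 0.11% of all genes). The slope was above 0 in 28 of 45 members and in 50.5% of all genes. Over the 30 constitutive subunits it ran from -0.06 to 0.07 log2 per cycle with a median of 0.02. Members with the largest kit differences showed the size of the spread. Psmc1 had 4496, 4893 and 4670.4 normalized counts at 16, 18 and 20 cycles, Psma7 had 3187, 3648 and 3362, and Psma3 had 4616, 4955 and 4728. Psmb3 had 2322, 2475 and 2825, Psmb1 3849.8, 3666 and 4122, Psmd8 4253, 4670.1 and 3755, and Psmd13 2173, 2508 and 2626. Of these 7 genes, the values of Psmb3 and Psmd13 were in steady order, and none of the slopes passed in limma. Among the remaining members described above, Psma1 had 4705, 5182 and 4386, Psmc3 6483, 6412 and 6875, Psmc6 5303, 4496 and 4730.0, Psmd2 7492, 7813 and 7878, and Psme4 3051, 3245 and 2931. Psmf1 had 853, 852 and 918, Psmd5 1813, 1922 and 1649, and Psmg4 174, 132 and 143. Psmc5, the highest ATPase per kb, had 4677, 4595 and 4356 in these libraries, and 423 and 305 with NuGEN against 346 and 289 with Clontech in the unsheared ones. The largest slopes belonged to rare members: Psmb9 (-0.71), Psmg3, with 408, 271 and 227 normalized counts at 16, 18 and 20 cycles (-0.21, adjusted p = 1.00), and Psmc3ip, with 73.5, 42.3 and 46.0 (-0.17). A steady order over the cycles was seen in 13 of 45 members and in 32.2% of all genes. The 6 CA1 markers all had slopes below 0, with 1 called (median -0.15, summed levels of 9314, 6923 and 6459 normalized counts). The 6 oligodendrocyte markers all had slopes above 0, with 0 called (median 0.06, sums of 24642, 33216 and 27994). The part of these cells in the members' values was not tested.

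Partners of the proteasome were compared in the same fits. Of 30 tested genes outside the Psm symbols that encode further subunits, assembly factors, substrate shuttles or parts of antigen processing, 7 were higher with NuGEN and 3 lower, beside the 10.8 and 10.5% of all genes. The largest was B2m, the light chain of class I molecules, at 1434 and 831 normalized counts in the NuGEN libraries against 233 and 140.3 in the others (2.59 log2 ± 0.225). Ubqln2, a shuttle of ubiquitinated proteins, had 3345 and 2474 against 1242 and 909 (1.44 ± 0.138), and Txnl1, a redox protein of the 19S cap, 638 and 449 against 229 and 242 (1.18 ± 0.253).

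Among the others that rose were the shuttles Rad23b and Ubqln4 and the chaperone of core assembly Pomp, with 471 and 455 against 289 and 232 (0.84 ± 0.252). The 3 that fell were Ube3c, a ligase that works on the proteasome, at 560 and 595 against 1146 and 1108 (-0.96 ± 0.178), AI314180, known as Ecm29, a proteasome scaffold, at 513 and 841 against 998 and 1275 (-0.78 ± 0.176), and Akirin2, which brings proteasomes into the nucleus, at 378 and 275 against 507 and 511 (-0.66 ± 0.237). Adrm1 and Shfm1, of the 19S cap, the deubiquitinases Uchl5 and Usp14, and Nfe2l1, the activator of proteasome genes, did not pass. For Nfe2l1 the values were 1471 and 1639 with NuGEN against 1496 and 1677 with Clontech. Adrm1 had 351 and 347 against 312 and 219, Shfm1 228 and 208 against 109 and 115, Uchl5 108 and 47.7 against 91.9 and 130.3, and Usp14 478 and 418 against 649 and 613. In Adrm1, Shfm1 and Usp14 the kits did not overlap, as in 55.0% of all genes. In the RNA comparison and over the cycles 0 of these genes passed in limma, with 5 and 0 at an unadjusted p under 0.05.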

How the data were processed

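The members and gene lists were chosen with earlier results of these data known. The authors trimmed and aligned paired reads to mm10 with STAR 2.4.1d, used featureCounts for counting and DESeq2 for scaling, per the submitters' processing notes and the methods. The methods name a GENCODE release, and a later one for a comparison of CA2 libraries with another data set. Which of them made the deposited sheared table, and the use of strand in counting, are not given in the sources used here. The deposited signal values are read counts divided by a size factor. Whole reads were recovered for 100% of values within 0.01 read.

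Both tables were normalized separately, so no test spans them. Genes of rRNA and mitochondria were removed by symbol, as were 26 symbols turned into dates in the sheared table (0.25% of its reads). Genes that reached 10 normalized counts in 2 or more libraries were tested as log2(value + 1) with limma 3.58.1 (R 4.3.3), with 1 residual degree of freedom. The gene fit of the kit comparison had 36.2 prior ones. The exon parts, the gene ends and the cycles were fitted separately, with priors of their own that are not given here. P-values of different fits therefore do not compare directly. Benjamini-Hochberg adjusted p under 0.05 was the threshold. Fold changes on this scale understate those of low genes. The design had allowed for raw counts with edgeR, so edgeR 4.0.16 and DESeq2 1.42.0 were run on the recovered reads as alternatives. They called 1375 and 1106 genes higher and 1100 and 817 lower between the kits. Other alternatives were the pseudocount, filter, scaling, length and GC trend, exon choice and libraries left out. Exon lengths came from GENCODE on GRCm38, in which all 48 members were found, and promoters from RefSeq. A read is counted in each exon piece it covers. Exon numbers run from the 5′ end. Tables used Python 3.11.15, numpy 2.4.6, pandas 2.3.3, scipy 1.17.1 and matplotlib 3.10.9. The fits were tested on simulated data.

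Values in every library are given for the catalytic and inducible subunits, Psma8 and Psmb11, the highest member and the largest and smallest kit difference of each class, and the largest RNA and cycle estimates. Named partners are given in the unsheared libraries. Further called members are also given. The values of 1 called partner are not reported here.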

Additional observations from a re-analysis of the deposited data

Results flagged for a closer look

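In 6 members the difference between the RNA samples had opposite signs in the kits, beyond counting error (13.6% of 44 members, beside 12.1% of all 13044 genes). Opposite signs of any size were found in 19 members (43.2%) and 44.0% of all genes. Each value rests on 1 library a side, and the difference between the kits was not tested. Psmb10, the inducible catalytic subunit, had a log2 difference of PicoPure over QIAGEN of -1.33 with NuGEN and 0.86 with Clontech. Psma5, of the alpha ring, had -0.88 and 0.71, and the ATPase Psmc6 had -0.57 and 0.24. The lid subunit Psmd7 had -0.29 and 0.49. Psmd14, the deubiquitinase, went the other way at 0.63 and -0.48, as did the scaffold Psmd2 at 0.20 and -0.16.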

How the results depend on the processing

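The labels give no replicate numbers. The kits are paired through the RNA sample, which is a term of the fit, and the fit without it is the unpaired one. Exon parts were added after the data had been seen. Psma3, Psmb2 and Psmc1 kept their kit call under all 11 alternatives that left out no library, whereas Psmb1 lost it under 8. In the earlier exons alone Psma3 changed sign to 0.062 log2 and Psmd14 to 0.72, and in the later exons Psmc1 to -0.53, Psmc3 to -0.97 and the partner Pomp to -0.18. Instead of 8 higher and 6 lower members, the fit without the RNA term gave 3 and 1, the earlier exons 24 and 3 and the later exons 2 and 10, while DESeq2 and the listed exons each gave 3 lower. The median kit difference of the members (0.14) was -0.25 without the length and GC trend, 0.37 in listed exons, 1.06 in earlier and -0.53 in later exons. Over all genes, limma called 2782 between the kits, DESeq2 1923 and the fit without the RNA term 1145.

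Between the RNA samples, a filter of 100 gave 1 higher member, Psme4, and the earlier exons 1 lower, Psma1. The median (-0.25) was -0.15 without the length and GC trend, -0.20 with edgeR and -0.14 in earlier exons. First exons gave 16 higher members at a pseudocount of 10 (34.6% of all genes) and 4 without the RNA term (10.3%). The medians were 1.54 at that pseudocount and 1.66 with the highest piece of each exon. Of the partners (7 higher, 3 lower, median 0.19), DESeq2 called 4 higher (8.48% of all genes). Without the RNA term 4 were higher and 1 lower (5.3 and 3.48%). The earlier exons gave 0 lower (4.79%) and the later exons 2 higher and 6 lower (8.27 and 14.8%). The partners' median was 0.048 with no filter, -0.078 with a filter of 100, 0.69 in earlier and -0.13 in later exons. Between the RNA samples 1 partner was lower with a filter of 100 (1.11% of all genes) and 2 without the length and GC trend (1.0%), and the later exons gave a median of 0.0055. The causes were not tested, other than by what each setting leaves out.

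Each library was also left out in turn, which leaves 1 library in a group, so only medians are given. The kit medians were -0.042 to 0.36 over members and -0.015 to 0.30 over partners. For the RNA samples the medians ran from -0.37 to -0.17 over members and -0.31 to -0.05 over partners. First exons gave medians of 1.60 to 1.83 and last exons medians of -0.42 to -0.032. Slopes gave medians of -0.01 to 0.03 for members and -0.02 to 0.02 for partners. With 1 library a combination and 4548002 reads in the smallest, members under 10 counts could not be compared.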
